A study of Mus musculus with 12 samples.

Results

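The genes described here are the mouse proteasome subunits and proteasome assembly factors whose symbols run from the Psma to the Psmg series. They were chosen by name alone, as every symbol made of Psm, a letter from a to g and a number, leaving out Psmb8 and Psmb9. The rule took 46 of the 55491 genes in the deposited tables. By function they fell into 14 core subunits, 17 cap subunits, 4 activators and 11 others, which were 4 core assembly chaperones, 3 cap assembly chaperones, 1 inhibitor and 3 restricted or inducible core subunits.

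The proteasome is the barrel-shaped protease that degrades proteins tagged with ubiquitin. Its core is built of a pair of outer alpha rings, which gate the entrance, and a pair of inner beta rings, which hold the proteolytic sites. A cap binds the ends of the core, and its base of ATPases unfolds and threads in the substrate while its lid removes the ubiquitin chain. Activators can bind the same ends in place of the cap and open the gate without ATP, and interferon can replace the proteolytic subunits by inducible ones.

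RNA came from PT-22, a mouse kidney line labelled as proximal tubule, the nephron segment that reabsorbs most of the filtered solutes. All groups shared the labelled genotype Pax2-/-, Pax8 fl/fl with Rosa-CreERT2, a Cre recombinase placed in the widely active Rosa locus that 4-hydroxytamoxifen switches on to delete the floxed gene, here the kidney transcription factor gene Pax8. Confluent cells were left untreated as the control or received 1 µM 4-hydroxytamoxifen for 2 days and were collected on day 2, 6 or 12. There were 3 libraries, A to C, in each of the 4 groups, and it is not stated if they are separate cultures, so p-values measure library spread alone, which may be technical. There was no vehicle-treated control and no untreated library of a later day, so drug, Cre activity, Pax8 deletion and time in culture cannot be told apart.

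Library totals ran from 4326667 counts (day 2 B) to 11654959 (day 2 C). Pax8 itself was not lower by its whole-gene count, at 221 to 228 CPM (counts scaled to the library total) in control, 367 to 460.4 at day 2, 249.0 to 268 at day 6 and 231.5 to 253 at day 12. Its count was higher at day 2 (log2 fold change 0.83, edgeR adjusted p = 5.59e-12) and day 6 (0.18, edgeR adjusted p = 0.0181). At day 12 the difference did not pass (0.10, edgeR adjusted p = 0.189). Pax2, labelled as deleted in every group, was nevertheless counted, at 42.6 to 53.4 CPM in control, 62.0 to 84.7 at day 2, 74.9 to 86.4 at day 6 and 47.4 to 54.6 at day 12. It was higher at day 2 (log2 fold change 0.58, edgeR adjusted p = 0.000153) and day 6 (0.75, edgeR adjusted p = 8.78e-07). These counts show transcript from a gene labelled -/-, and since the labels name the deleted part of neither gene, whole-gene counts check neither deletion nor labels. Of 14 proximal tubule markers, with sums of 317 to 349 TPM in control and 394 to 827 TPM after treatment, 7 stayed at or under 10 counts in every library, including Slc34a1, Slc5a2 and Slc5a12 with none. Of 8 fibroblast and smooth muscle markers, 4 stayed at or under 10 counts, Pdgfra and Col3a1 at 0, yet the list's summed level was 3.10 to 4.77 TPM (a level corrected for transcript length) in control, 11.2 to 15.5 at day 2, 66.5 to 87.1 at day 6 and 290.0 to 353 at day 12, most of it Acta2. Summed leukocyte markers lay at 16.6 to 22.3 TPM in control and 12.4 to 21.6 TPM across the treated libraries, and endothelial ones at 5.88 to 10.6 and 9.27 to 13.9 TPM. The part of these shifts in the results on proteasome genes was not tested, and in bulk RNA fewer cells of a type and less RNA per cell cannot be told apart. The library day 2 B had the fewest counts and the highest share of mitochondrial counts (5.70%, against 3.75% to 4.94% in the others), and some results that rest on it are given without it.

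Proteasome genes lie apart in the genome: the 46 members sat on 16 chromosomes. Neighbouring pairs existed on chromosome 14, where Psme1 and Psme2, whose products form a joint ring, lay 5911 bases apart, and Psmb5 and Psmb11 lay 3410 bases apart. RefSeq promoters on GRCm38.p6, taken as 250 bases before to 50 bases after the gene start, were at hand for 38 of the 46 members. The motif searched was TGACNNNGC on both strands, the core of the antioxidant response element, which NFE2L1, a transcription factor known to raise proteasome genes when the proteasome fails, can bind. It lay in 6 of the 38 promoters (15.8%), beside 3781 of 27025 promoters of all genes (14.0%). The 6 matches, chosen because they are the members' matches, lay in the windows Psmb5 at chr14:54618024-54618052, Psmb6 at chr11:70525338-70525366, Psmc6 at chr14:45329587-45329615, Psmd12 at chr11:107479278-107479299, Psmd9 at chr5:123228149-123228177, Psme4 at chr11:30771758-30771786. They are printed 5′ to 3′ on the strand of the gene, with up to 10 bases on either side and the motif, or its reverse complement, in capitals.
Psmb5: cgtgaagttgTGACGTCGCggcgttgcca
Psmb6: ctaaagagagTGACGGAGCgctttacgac
Psmc6: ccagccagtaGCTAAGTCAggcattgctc
Psmd12: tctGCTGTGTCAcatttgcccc
Psmd9: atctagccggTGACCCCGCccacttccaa
Psme4: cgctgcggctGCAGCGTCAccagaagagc

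A match is a description of letters and not a site. The holders covered several roles: catalytic core subunits (Psmb5, Psmb6), a base ATPase (Psmc6), a lid subunit (Psmd12), an assembly chaperone (Psmd9) and an activator (Psme4). Promoters of the members were richer in CpG than promoters of all genes, with a median observed-to-expected ratio of 0.772 against 0.415 and a median GC content of 59.0% against 53.3%. The windows of the activator gene Psme3 and the chaperone gene Psmg1, shown here, did not hold the motif, nor did those of Psmc4 and Psmb10, also described below. The 250 bases before the start of Psme3 (chr11:101315963-101316212, plus strand) and of Psmg1 (chr16:95990961-95991210, minus strand) are shown 5′ to 3′ on the gene's strand because these genes fell most among activators and assembly chaperones.
Psme3: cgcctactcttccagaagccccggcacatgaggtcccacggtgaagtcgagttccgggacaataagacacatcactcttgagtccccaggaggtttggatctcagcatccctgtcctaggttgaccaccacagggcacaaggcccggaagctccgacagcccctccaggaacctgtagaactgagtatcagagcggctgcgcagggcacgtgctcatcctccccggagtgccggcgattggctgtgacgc
Psmg1: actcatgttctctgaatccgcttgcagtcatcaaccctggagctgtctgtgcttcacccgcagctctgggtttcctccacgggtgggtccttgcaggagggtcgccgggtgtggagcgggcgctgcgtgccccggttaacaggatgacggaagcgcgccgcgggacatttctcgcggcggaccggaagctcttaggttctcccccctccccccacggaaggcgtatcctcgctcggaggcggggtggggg

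Per transcript length, core subunits were the more abundant class in untreated cells and activators the least. The median of the members' mean control TPM was 219 over the 14 core subunits, 137 over the 17 cap subunits and 126 over the 4 activators. Levels within a class nevertheless spread 7.35-fold in the core, although an assembled core ring holds its subunits in equal number. The spread was 5.06-fold in the cap and 5.23-fold among the activators, which form separate complexes. Psma7, an alpha ring subunit, led all members at 638 ± 23.1 TPM (SD, n = 3), with 616, 662 and 635 TPM in the 3 libraries. Psma2, another alpha ring subunit, was the lowest of the core at 86.8 ± 5.07 TPM, with 91.6, 81.5 and 87.3 TPM. No control library of Psma2 came near any of Psma7.

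In the cap, Psmd2, a large scaffold subunit of the base, stood highest at 303 ± 9.17 TPM (313, 295 and 299.5 TPM) and Psmd11, a lid subunit, was lowest at 59.8 ± 6.65 TPM (61.6, 52.5 and 65.4 TPM). Among activators, Psme1 (164 ± 11.05 TPM) and Psme2 (154 ± 19.2 TPM) did not differ beyond their spread. Psme3, which forms a nuclear ring of its own, followed at 97.3 ± 0.815 TPM, and Psme4, the large single-chain activator, was lowest at 31.3 ± 3.42 TPM. The assembly chaperones were all lower than the core median, from 29.8 ± 2.73 TPM for Psmd9 to 60.5 ± 5.48 TPM for Psmg1.

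**Figure D1:**
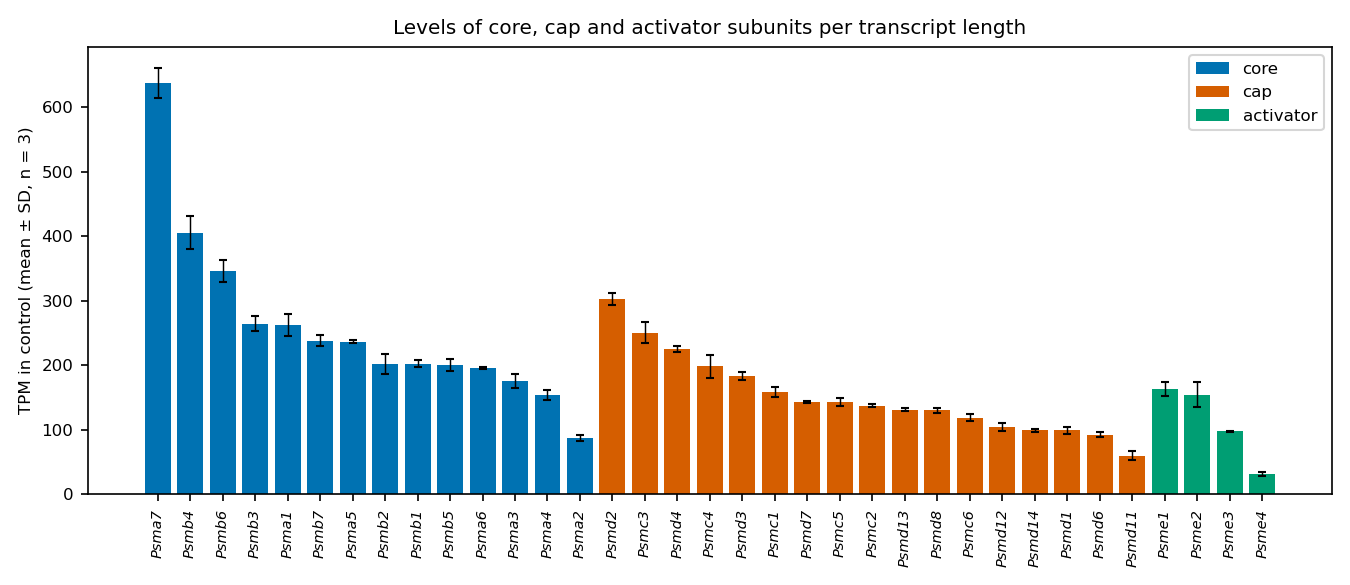
Mean level in the 3 control libraries of the 35 core, cap and activator subunits, in TPM, ordered within each class; bars start at 0 and whiskers are the SD. Psma7 stands at 638 TPM, above every other subunit, and Psme4 at 31.3 TPM below every other one.

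Changes were tested on counts by edgeR, with p-values adjusted over the 13513 genes that had enough counts, and a gene is called higher or lower here when its adjusted p was under 0.05. Of the members, 44 of 46 could be tested. Psma8, a subunit of germ cells, had no count in any library, and Psmb11, a subunit of the thymus, had 0 to 3 counts. Psma8's count of 0 does not exclude a transcript too rare to be counted at this depth.

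After treatment, more core and cap subunit genes fell than rose, and the changes were small. At day 2, 9 of the 44 members (20.5%) were lower and 1 (2.27%) higher, while 10.9% of all tested genes were lower and 10.3% higher. By day 6, 22 members (50%) were lower and 2 (4.55%) higher, against 27.6% and 26.7% of all tested genes. At day 12, 15 members (34.1%) were lower and 4 (9.09%) higher, against 26.6% and 26.1%. The members' median log2 fold changes were -0.09, -0.15 and -0.10, where the medians of all tested genes were -0.0015, -0.0060 and -0.0028. Members are more abundant than most genes, with a median of 106 CPM against 31.0 CPM for all tested genes, and the part of this in the share called was not tested.

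The day 2 count rested on single libraries: 3 members were lower without day 2 B, 3 without day 2 A, 3 without control B and 14 without day 2 C. Of the 10 calls at day 2, 2 held under every way of counting and every left-out library, those of the lid genes Psmd3 and Psmd13. Of the 24 calls at day 6, 18 held in this sense, and of the 19 at day 12, 12. Once the 4 fits on TPM were added, 1, 9 and 9 calls held at days 2, 6 and 12, and that of Psmd13 did not. On the TPM scale without further centring, 8 members were lower at day 6 and 7 at day 12, and with each library centred on its median 15 and 10.

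**Figure D2:**
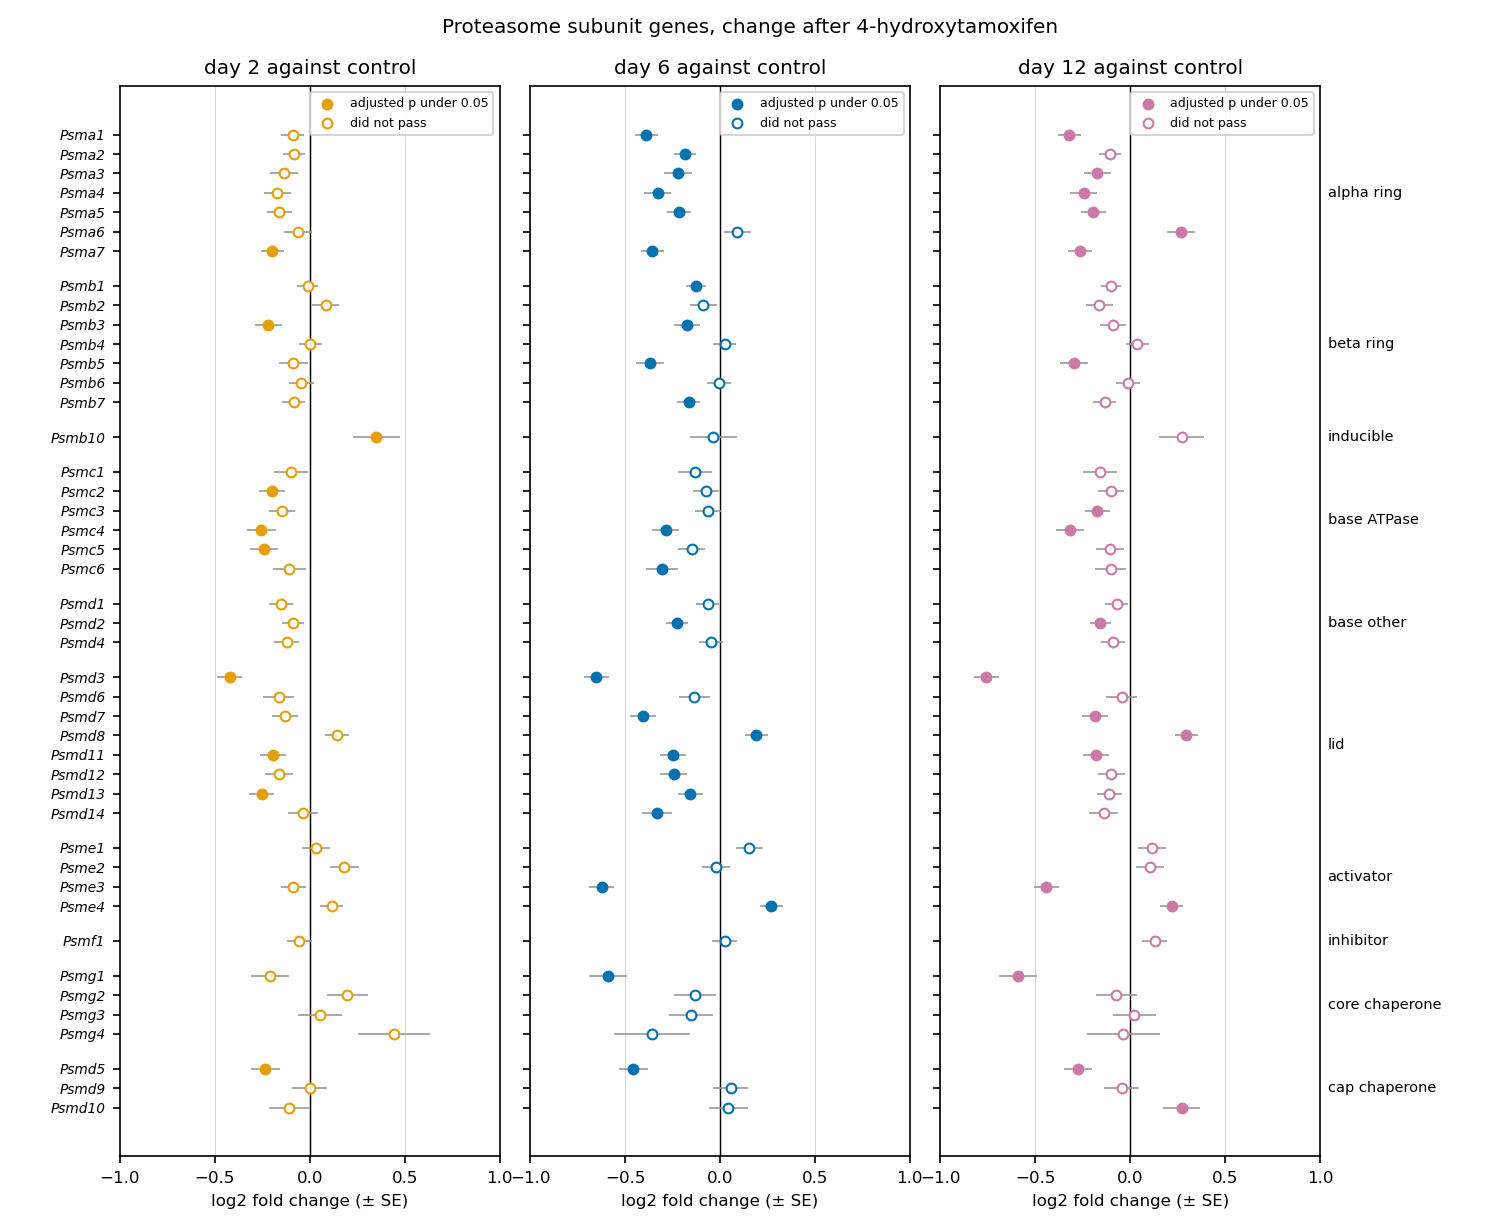
Log2 fold change against control of the 44 tested members at days 2, 6 and 12, grouped by role, with the SE as whiskers; filled points passed an adjusted p of 0.05 in edgeR. At day 6 most alpha ring and lid genes lie left of 0, Psmd3, Psme3 and Psmg1 farthest, while Psmd8 and Psme4 lie to the right.

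Core and cap genes that passed were almost all lower, and the activators split. The classes were not tested against each other. Among 14 core genes, 2 were lower at day 2, 10 at day 6 and 6 at day 12, and 0, 0 and 1 were higher. The shares lower were 14.3%, 71.4% and 42.9%, beside 10.9%, 27.6% and 26.6% of all tested genes, so the day 2 share lay near theirs. The shares higher were 0%, 0% and 7.14%, beside 10.3%, 26.7% and 26.1%. For the 17 cap genes the numbers were 6, 9 and 6 lower and 0, 1 and 1 higher. These were 35.3%, 52.9% and 35.3% lower and 0%, 5.88% and 5.88% higher. Of 4 activators, none was called at day 2, and at days 6 and 12 Psme3 was lower and Psme4 higher. Each made up 25% of the class, near the shares of all tested genes. Median log2 fold changes were -0.09, -0.18 and -0.15 for the core, -0.15, -0.16 and -0.11 for the cap, and 0.07, 0.07 and 0.11 for the activators at days 2, 6 and 12. The activator median of 0.07 at day 2 was -0.03 on the uncentred TPM scale.

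Summed over the class, core transcripts stood at 3591, 3655 and 3579 TPM in control libraries A, B and C. They stood at 3254, 3089 and 3524 TPM at day 2, at 3486, 3403 and 3261 TPM at day 6 and at 3292, 3507 and 3410.3 TPM at day 12. Such a sum leans on its most abundant genes. Psma7 alone averaged 638 TPM in control, 526 TPM at day 6 and 536 TPM at day 12, beside mean core sums of 3608, 3384 and 3403 TPM. Psmb4 and Psma6, among others, had higher means at both days than in control. For the core sum, every treated library lay below every control library, with day 2 B the lowest. Cap transcripts behaved likewise, at 2568 to 2581 TPM in control, 2016 to 2485 TPM at day 2, 2397 to 2487 TPM at day 6 and 2258 to 2498 TPM at day 12. Summed activators overlapped between groups, at 433 to 466 TPM in control, 400.4 to 491 TPM at day 2, 439 to 519 TPM at day 6 and 441 to 467 TPM at day 12. The ratio of cap to core sums was 0.706 to 0.720 in control and 0.653 to 0.735 in treated libraries, which overlap. Members took 0.525% to 0.549% of all counts in control and 0.462% to 0.520% in treated libraries.

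Within the alpha ring, which gates the core, 6 of 7 genes were lower at day 6 and 5 at day 12. These shares, 85.7% and 71.4%, stood beside 27.6% and 26.6% of all tested genes. Psma7 stood at 258, 296 and 267 CPM (control), 227, 230.3 and 257 CPM (day 2), 221, 217 and 203 CPM (day 6), and 214, 239 and 229.9 CPM (day 12). All treated libraries lay below all control libraries. Its log2 fold changes were -0.20 ± 0.06 (SE; edgeR adjusted p = 0.0193) at day 2, -0.36 ± 0.06 (edgeR adjusted p = 8.92e-06) at day 6 and -0.26 ± 0.06 (edgeR adjusted p = 0.000481) at day 12. The day 2 call was lost without control B (adjusted p = 0.164), without day 2 A (0.136) and without day 2 B (0.0565). It was also lost in all 4 fits on TPM.

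Psma1 showed the largest fall of the core at day 6, from 164 ± 7.48 to 125 ± 2.82 CPM (SD, n = 3), a log2 fold change of -0.39 ± 0.06 (edgeR adjusted p = 1.68e-06), and stood at 131 ± 4.93 CPM on day 12 (-0.32 ± 0.06, edgeR adjusted p = 3.11e-05). At neither day did its libraries overlap with control. Psma2, the lowest core gene, had 137, 136 and 132 CPM (control), 129, 121 and 129.7 CPM (day 2), 123, 119 and 113 CPM (day 6) and 124, 124 and 128 CPM (day 12). Only its day 6 difference passed (-0.19 ± 0.06, edgeR adjusted p = 0.00699), and on the TPM scale it did not (adjusted p = 0.647 with limma on log2(TPM + 1)).

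Psma6 was the exception in the ring. It stood at 101 ± 2.62 CPM (control), 94.7 ± 13.6 CPM (day 2), 107 ± 4.28 CPM (day 6) and 121 ± 7.08 CPM (day 12). The day 12 libraries (113, 123 and 127 CPM) all exceeded the control libraries (100.2, 103 and 98.2 CPM), with a log2 fold change of 0.27 ± 0.07 (edgeR adjusted p = 0.00210). That call was lost in each of the 4 fits on TPM.

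The beta ring carries the proteolytic sites in Psmb5 (chymotrypsin-like), Psmb6 (caspase-like) and Psmb7 (trypsin-like). Of 7 beta ring genes, 4 were lower at day 6 and 1, Psmb5, at day 12. The day 6 share was 57.1%, beside 27.6% of all tested genes. The day 12 share was 14.3%, below the 26.6% of all tested genes. Psmb5 had 79.0, 87.6 and 87.0 CPM (control), 82.6, 84.6 and 73.6 CPM (day 2), 69.8, 66.6 and 59.3 CPM (day 6) and 70.9, 72.4 and 63.5 CPM (day 12). The day 6 and day 12 libraries lay below all controls, with log2 fold changes of -0.37 ± 0.08 (edgeR adjusted p = 9.66e-05) and -0.29 ± 0.07 (edgeR adjusted p = 0.00120). Psmb6 stayed at 121 ± 10.97, 116 ± 6.50, 120.4 ± 0.664 and 119.8 ± 2.14 CPM (control) and at days 2, 6 and 12. Its log2 fold changes, -0.05, -0.01 and -0.01 with an SE of 0.06 each, did not pass.

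Psmb7 passed at day 6 only (-0.16 ± 0.06, edgeR adjusted p = 0.0203), a call lost without control B, control C or day 6 C (adjusted p up to 0.102). Its last exons overlap Nek6 on the other strand, and whether counting used strand is not given. The day 6 calls of Psmb1 (-0.13 ± 0.05, edgeR adjusted p = 0.0471) and Psmb3 (-0.17 ± 0.07, edgeR adjusted p = 0.0335) were lost in 11 of 12 and in 6 of 12 fits that left out a library. On TPM the day 6 calls of Psmb7, Psmb1 and Psmb3 were each lost in 3 of 4 fits.

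In the base of the cap, the 6 ATPase genes were lower in 3 cases at day 2 (Psmc2, Psmc4, Psmc5) and in 2 at day 6 (Psmc4, Psmc6) and day 12 (Psmc3, Psmc4). These shares were 50%, 33.3% and 33.3%, beside 10.9%, 27.6% and 26.6% of all tested genes, so those of days 6 and 12 lay near theirs. On counts Psmc4 was the ATPase gene called at every day, while the calls of Psmc2 and Psmc5 at day 2 and of Psmc3 at day 12 each ended in 2 to 4 of the 12 fits that left out a library, control B among them. The calls of Psmc2 and Psmc5 also ended without day 2 B. On TPM these calls, and those of Psmc6 at day 6 and Psmc3 at day 12, ended in all 4 fits. Psmc4 had 125, 139 and 132 CPM (control), 106, 98.2 and 123 CPM (day 2), 110.2, 100.3 and 114 CPM (day 6), and 99.995, 101 and 116 CPM (day 12). Each treated library lay below each control library. Log2 fold changes were -0.26 ± 0.07 (edgeR adjusted p = 0.0122) at day 2, -0.29 ± 0.07 (edgeR adjusted p = 0.00141) at day 6 and -0.32 ± 0.07 (edgeR adjusted p = 0.000553) at day 12. At day 2 the call of Psmc4 was lost without control B (adjusted p = 0.0703), day 2 A (0.0724) or day 2 B (0.0611). On TPM its calls at days 2 and 6 were lost in all 4 fits and that at day 12 in none. Its TPM levels at day 6 (215, 172 and 182) overlapped with those of control (178, 213 and 203).

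Among the non-ATPase base genes, the scaffold gene Psmd2 had 559, 553 and 522 CPM (control), 512, 466 and 554 CPM (day 2), 480.2, 457 and 458 CPM (day 6), and 485, 479 and 501 CPM (day 12). Day 2 overlapped with control and days 6 and 12 did not. The differences were -0.09 ± 0.06 (edgeR adjusted p = 0.3002) at day 2, -0.23 ± 0.06 (edgeR adjusted p = 0.000900) at day 6 and -0.16 ± 0.06 (edgeR adjusted p = 0.0192) at day 12. Leaving out control A or B, or day 12 A or B, ended the day 12 call (adjusted p up to 0.0773). On TPM the day 12 call of Psmd2 was lost in all 4 fits and its day 6 call in 3. Psmd4, a receptor for ubiquitin chains, and Psmd1, the other scaffold gene, passed at no day.

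The lid held both the largest fall and the clearest rise of the cap. Psmd3, a structural subunit of the lid (ENSMUSG00000017221, GRCm38 chr11:98682554-98695979, plus strand), stood at 228, 239.9 and 233 CPM (control). It fell to 158, 201 and 167 CPM (day 2), 149.8, 144 and 152 CPM (day 6), and 134, 145 and 135 CPM (day 12). No treated library reached the lowest control library, and the group means were 234 ± 6.16, 176 ± 22.5, 149 ± 4.39 and 138 ± 6.01 CPM (SD, n = 3). Log2 fold changes against control were -0.42 ± 0.07 (edgeR adjusted p = 4.21e-06), -0.65 ± 0.06 (edgeR adjusted p = 1.45e-10) and -0.76 ± 0.06 (edgeR adjusted p = 3.85e-12). These calls held in every alternative run, including those on TPM and those that left out 1 library.

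Psmd8, another lid gene, moved the other way. It stood at 95.4, 97.7 and 92.3 CPM (control), 102, 107 and 106 CPM (day 2), 111, 113 and 101 CPM (day 6), and 117, 116 and 117 CPM (day 12). All treated libraries exceeded all control libraries. Its differences were 0.14 ± 0.06 (edgeR adjusted p = 0.102) at day 2, 0.19 ± 0.06 (edgeR adjusted p = 0.00791) at day 6 and 0.29 ± 0.06 (edgeR adjusted p = 9.39e-05) at day 12.

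Psmd14, the subunit that cuts off the ubiquitin chain, and Psmd7, its partner without enzymatic activity, were lower at day 6 by similar amounts. Psmd7 went from 126 ± 5.72 to 94.4 ± 7.64 CPM (-0.41 ± 0.07, edgeR adjusted p = 4.98e-06) and Psmd14 from 82.1 ± 2.81 to 65.1 ± 5.19 CPM (-0.33 ± 0.08, edgeR adjusted p = 0.000578). On TPM the call of Psmd14 was lost in 3 of 4 fits and that of Psmd7 in none. From day 6 to day 12, Psmd7 rose to 110.3 ± 4.65 CPM, the only member called between those days (0.22 ± 0.07, edgeR adjusted p = 0.0178, and up to 0.157 without day 6 C or day 12 C), where 11.0% of all tested genes were higher and 11.0% lower. This call was lost in all 4 fits on TPM.

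Psmd11, the lowest cap gene per length, had 81.9, 75.4 and 84.5 CPM (control), 70.9, 68.3 and 71.8 CPM (day 2), 70.5, 67.7 and 65.6 CPM (day 6), and 73.5, 66.6 and 74.1 CPM (day 12). Treated libraries all lay below control libraries. Its differences were -0.19 ± 0.07 (edgeR adjusted p = 0.0452), -0.25 ± 0.07 (edgeR adjusted p = 0.00284) and -0.18 ± 0.07 (edgeR adjusted p = 0.0291). The day 2 call was lost in 11 of 12 fits that left out a library and the day 12 call in 3 of 12 (without control A, control C or day 12 B). On TPM the calls of Psmd11 at days 2 and 12 were lost in all 4 fits and that at day 6 in 3. A transcribed copy, A730017L22Rik, had 97.9% identity to it and counts equal to 9.32% of its own, so its share of reads is uncertain. The lid genes Psmd12 and Psmd13 were also lower at day 6, and Psmd13, whose exons overlap those of Sirt3 on the opposite strand, was lower at day 2 too (-0.25 ± 0.07, edgeR adjusted p = 0.00454). The day 6 call of Psmd13 ended in 8 of 12 fits that left out a library. On TPM the day 6 calls of Psmd12 and Psmd13 ended in all 4 fits, and the day 2 call of Psmd13 in 2.

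**Figure D3:**
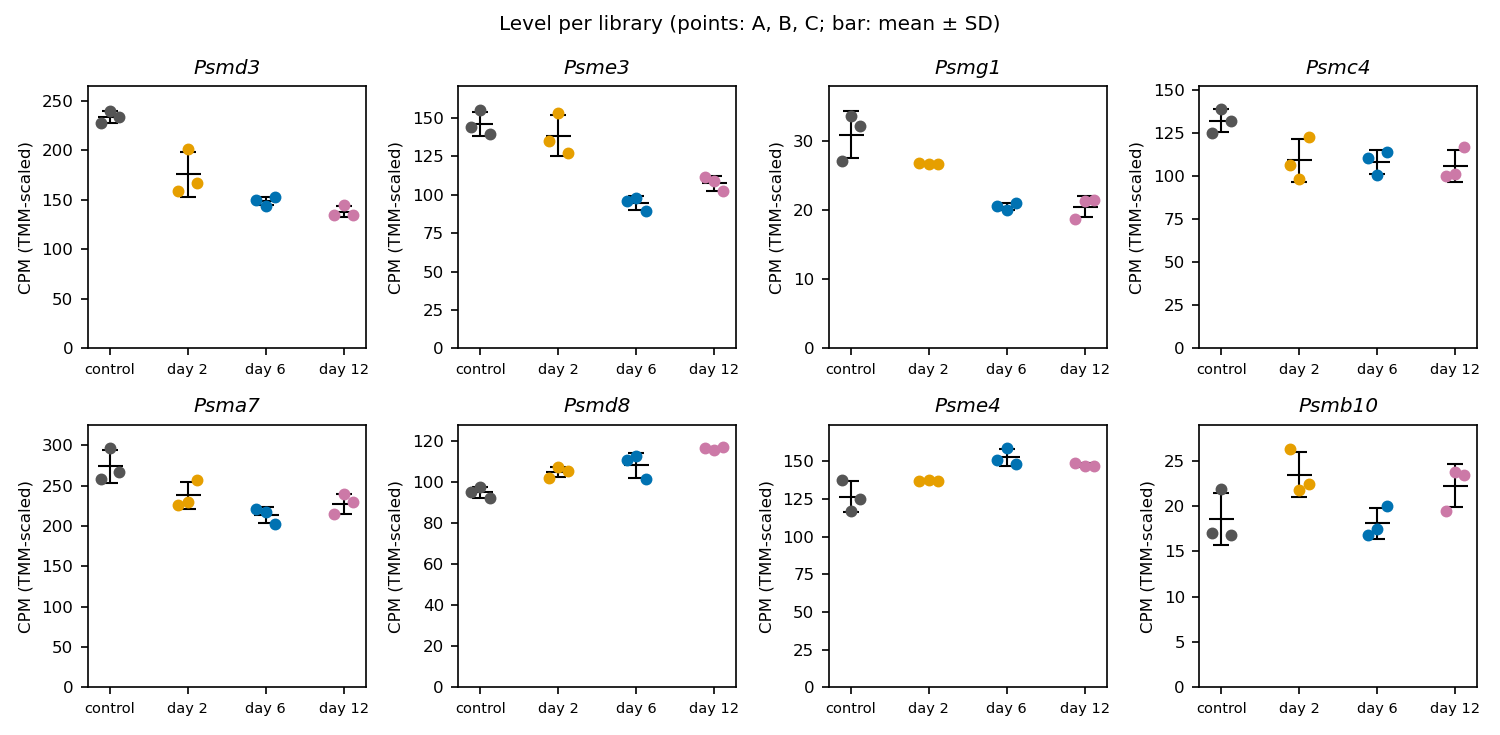
TMM-scaled CPM of 8 members in each of the 12 libraries, with bars for the mean ± SD of each group; axes start at 0. Psmd3 steps down from 234 CPM (control) to 138 CPM (day 12), Psme3 is low from day 6 on, and Psmd8 and Psme4 are higher after treatment.

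The activators moved in opposite directions. Psme3, whose product forms the nuclear activator ring (ENSMUSG00000078652, GRCm38 chr11:101316213-101323537, plus strand), had 144, 155 and 139 CPM (control) and 135, 153 and 127 CPM (day 2). It fell to 95.8, 98.1 and 89.6 CPM (day 6) and stood at 111, 109 and 102 CPM (day 12). Day 2 overlapped with control, while days 6 and 12 lay below it throughout. Differences were -0.09 ± 0.07 (edgeR adjusted p = 0.397) at day 2, -0.62 ± 0.07 (edgeR adjusted p = 8.07e-10) at day 6 and -0.44 ± 0.07 (edgeR adjusted p = 6.78e-07) at day 12. Between days 2 and 6 the fall was -0.53 ± 0.07 (edgeR adjusted p = 5.85e-08).

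Psme4 had 138, 117 and 125 CPM (control), 137, 138 and 137 CPM (day 2), 151, 159 and 148 CPM (day 6), and 149, 147 and 147 CPM (day 12). Days 6 and 12 lay above all control libraries. The rises were 0.12 ± 0.06 (edgeR adjusted p = 0.199), 0.27 ± 0.06 (edgeR adjusted p = 0.000258) and 0.22 ± 0.06 (edgeR adjusted p = 0.00246) at days 2, 6 and 12. The calls of Psme3 and Psme4 against control held in every alternative.

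Psme1 and Psme2 make up the interferon-inducible activator ring. Psme1 had 85.0, 102 and 87.1 CPM (control), 90.3, 84.9 and 101 CPM (day 2), 107, 97.8 and 99.1 CPM (day 6), and 92.6, 101 and 103 CPM (day 12), with overlap at each day. Its differences of 0.03 ± 0.07, 0.15 ± 0.07 and 0.12 ± 0.07 did not pass (edgeR adjusted p = 0.822, 0.0720 and 0.183). Without control B, the library with the highest control value, days 6 and 12 passed (edgeR adjusted p = 0.0105 and 0.0325).

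Psme2 had 63.2, 66.1 and 60.4 CPM (control), 67.9, 66.4 and 78.3 CPM (day 2), 65.8, 60.1 and 60.7 CPM (day 6), and 68.96, 67.0 and 67.6 CPM (day 12). Its differences of 0.18 ± 0.07, -0.02 ± 0.07 and 0.10 ± 0.07 did not pass (edgeR adjusted p = 0.0822, 0.842 and 0.247). Day 2 and day 12 libraries lay above all controls, by little, and day 6 overlapped. Without day 2 B the day 2 difference passed (edgeR adjusted p = 0.0347). A near-identical gene, Psme2b (99.4% identity), held counts equal to 21.7% of those of Psme2, so the division of reads between the pair is uncertain.

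Chaperones that build the proteasome gave the third large fall. Psmg1, which with Psmg2 assembles the alpha ring (ENSMUSG00000022913, GRCm38 chr16:95979933-95990960, minus strand), had 27.1, 33.6 and 32.2 CPM (control). It had 26.8, 26.7 and 26.6 CPM (day 2), 20.6, 20.001 and 21.1 CPM (day 6), and 18.8, 21.3 and 21.5 CPM (day 12). All treated libraries lay below all control libraries, at day 2 only just. The differences were -0.21 ± 0.10 (edgeR adjusted p = 0.141), -0.59 ± 0.10 (edgeR adjusted p = 6.46e-06) and -0.59 ± 0.10 (edgeR adjusted p = 6.26e-06). Its partner Psmg2 and the later-acting pair of Psmg3 and Psmg4 did not pass against control at any day.

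Of the cap chaperones, Psmd5 was lower at all 3 days: 74.3, 73.9 and 64.3 CPM (control), 57.4, 57.8 and 63.8 CPM (day 2), 52.0, 50.5 and 52.0 CPM (day 6), and 61.1, 57.1 and 56.9 CPM (day 12). No treated library overlapped with control. By day 6 it had changed by -0.46 ± 0.08 (edgeR adjusted p = 3.65e-06). The day 2 call ended without control A or B or day 2 A or B (adjusted p up to 0.119), and all 3 calls ended in the 4 fits on TPM. Psmd10, also known as gankyrin, was higher at day 12 alone, at 31.1 ± 2.02 against 25.9 ± 2.13 CPM (0.27 ± 0.10, edgeR adjusted p = 0.0210), a call lost without control A, control C or day 12 C (adjusted p up to 0.114). On TPM that call was lost in 2 of 4 fits. Psmd9 and the inhibitor gene Psmf1 did not pass at any day, the latter with 96.2 ± 7.02 CPM (control) and 105 ± 3.65 CPM on day 12 (0.13 ± 0.06, edgeR adjusted p = 0.0928).

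Between days 2 and 6, 15 members were lower and 1 higher, where 22.3% of all tested genes were lower and 22.6% higher. The 15 comprised 4 core genes, 4 cap genes, 2 activators, 3 core chaperones (Psmg1, Psmg2 and Psmg4), the cap chaperone Psmd5 and the inducible core gene Psmb10. Psme4 was the higher one (0.15 ± 0.06, edgeR adjusted p = 0.0364, and up to 0.151 without day 2 A, day 2 C, day 6 A or day 6 B). From day 6 to day 12, 1 member was higher and 0 lower.

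The inducible core subunits replace the constitutive proteolytic ones after interferon signalling: Psmb8 for Psmb5, Psmb9 for Psmb6 and Psmb10 for Psmb7. Psmb10 had 17.0, 21.9 and 16.8 CPM (control), 26.3, 21.7 and 22.4 CPM (day 2), 16.8, 17.5 and 20.005 CPM (day 6), and 19.5, 23.8 and 23.4 CPM (day 12). Control and day 2 overlapped through control B. It was called higher at day 2 (0.35 ± 0.12, edgeR adjusted p = 0.0371), a call lost in all 4 fits on TPM, in DESeq2 (adjusted p = 0.111), with only these 2 groups in the fit (0.0512), and without control A (0.139), control C (0.174) or day 2 A (0.211). Mean levels on the TPM scale were 45.01 ± 9.75 (control) and 45.7 ± 6.04 (day 2). At days 6 and 12 it did not pass (-0.03 ± 0.12, edgeR adjusted p = 0.834, and 0.27 ± 0.12, edgeR adjusted p = 0.0567).

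Psmb8 and Psmb9, outside the name rule, were higher at day 12. Psmb8 went up from 14.6 ± 1.66 CPM (control) to 22.6 ± 0.396 CPM on day 6 (0.63 ± 0.12, edgeR adjusted p = 3.36e-05) and 28.2 ± 3.76 CPM on day 12 (0.95 ± 0.12, edgeR adjusted p = 1.63e-08). Psmb9 was low, at 2.46 ± 0.485 CPM (control) and 4.37 ± 0.286 CPM on day 12 (0.82 ± 0.26, edgeR adjusted p = 0.00851, and 0.0575 without control A).

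Set against its constitutive counterpart per length, Psmb8 amounted to 15.7%, 16.3% and 11.6% of Psmb5 in the control libraries and to 36.5%, 32.2% and 26.9% at day 12, with means of 14.5 ± 2.59%, 19.0 ± 3.70%, 28.0 ± 2.54% and 31.9 ± 4.798% across the 4 groups. Every library of days 6 and 12 exceeded every control library. The ratio of Psmb9 to Psmb6 was 1.12 ± 0.135% in control and 2.00 ± 0.202% at day 12, and that of Psmb10 to Psmb7 was 18.9 ± 4.26% and 21.0 ± 1.21%, which overlap. These are transcript ratios, given without a test.

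**Figure D4:**
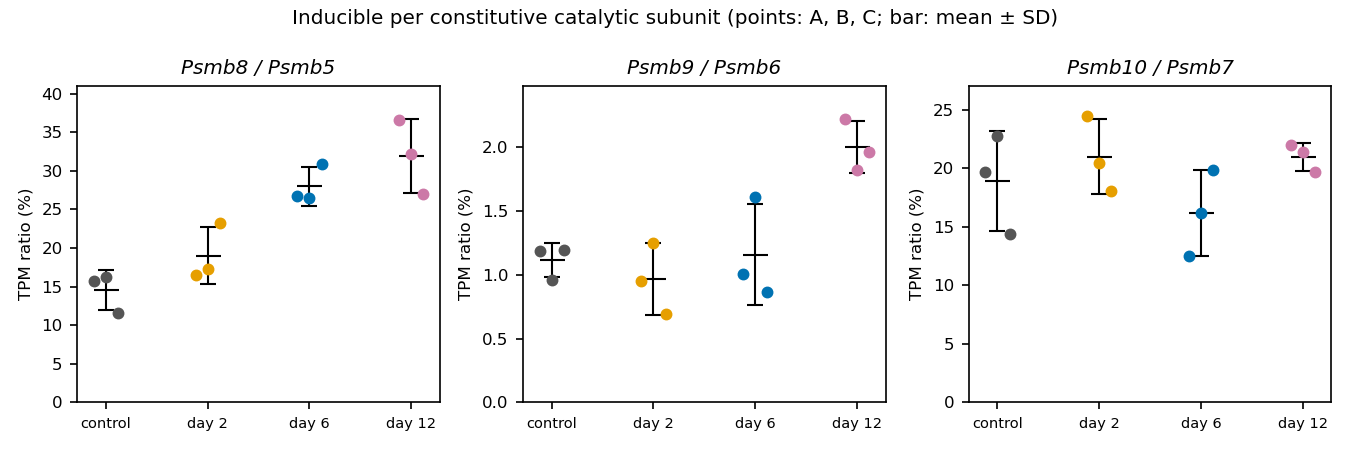
Ratio of inducible to constitutive catalytic subunit transcripts, in percent of TPM, in each of the 12 libraries, with bars for the mean ± SD of each group. Psmb8 per Psmb5 climbs from 14.5% in control to 31.9% at day 12, Psmb9 per Psmb6 stands at 2.00% at day 12, and Psmb10 per Psmb7 overlaps between groups.

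Subunits and helpers outside the name rule were counted from a list of 11, of which 10 were tested. At day 6, 5 of them were lower and 1, Psmb8, higher, and at day 12, 4 were lower and 2 (Psmb8 and Psmb9) higher. The shares lower, 50% and 40%, stood beside 27.6% and 26.6% of all tested genes, and the shares higher, 10% and 20%, beside 26.7% and 26.1%. Pomp, the chaperone that matures the core, fell from 95.4 ± 7.71 to 70.3 ± 1.90 CPM on day 6 (-0.44 ± 0.07, edgeR adjusted p = 2.21e-06). Uchl5, a deubiquitinase docked on the cap, fell from 45.8 ± 0.308 to 27.4 ± 3.45 CPM (-0.73 ± 0.11, edgeR adjusted p = 2.06e-06). Usp14, the other docked deubiquitinase (-0.38 ± 0.07, edgeR adjusted p = 3.48e-05), and Sem1, the smallest lid subunit (-0.45 ± 0.09, edgeR adjusted p = 5.39e-05), were lower as well, and these genes were lower again at day 12. On TPM the calls of Usp14 at both days were lost in 3 of 4 fits. Of the other day 12 calls, that of Sem1 was lost in 3 and that of Uchl5 in 1. Ecpas, an adapter of the proteasome, passed at day 6 alone (-0.14 ± 0.06, edgeR adjusted p = 0.0435), a call that was lost in 10 of 12 fits that left out a library and pointed the other way on the uncentred TPM scale. The docked ubiquitin receptor Adrm1 did not pass (145.9 ± 11.1 CPM (control), 144 ± 9.02 CPM (day 6)).

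Of 8 genes listed as regulators of the proteasome or its genes, 1 was higher and 1 lower at day 2, 4 higher and 2 lower at day 6, and 6 higher and 1 lower at day 12. The shares higher were 12.5%, 50% and 75%, where 10.3%, 26.7% and 26.1% of all tested genes were higher. Irf1 and Nlrc5, activators of the inducible subunits and of antigen presentation, were among the higher ones. Irf1 rose from 57.9 ± 3.51 CPM (control) to 80.4 ± 4.67 CPM on day 2 (0.47 ± 0.08, edgeR adjusted p = 1.06e-05) and 83.5 ± 6.26 CPM on day 12 (0.53 ± 0.08, edgeR adjusted p = 2.41e-07). Nlrc5 rose from 2.66 ± 0.199 to 7.40 ± 0.463 CPM on day 12 (1.47 ± 0.22, edgeR adjusted p = 8.43e-07), a call lost in all 4 fits on TPM.

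For the constitutive subunits, Nfe2l1, which encodes the factor named above, stood at 304 ± 9.37 CPM (control) and 339 ± 6.56 CPM on day 12 (0.16 ± 0.05, edgeR adjusted p = 0.00939), a call lost in all 4 fits on TPM. Ngly1, which removes the glycans of that factor, was higher at day 12 (0.81 ± 0.13, edgeR adjusted p = 3.49e-06), and so was Ddi2, the protease that cuts it (0.15 ± 0.06, edgeR adjusted p = 0.0336, lost in all 4 fits on TPM and without control B, control C or any day 12 library). Zfand5, which binds the proteasome and speeds degradation, was lower at each day, from 273 ± 10.3 CPM (control) to 189 ± 4.72 CPM on day 2 (-0.53 ± 0.05, edgeR adjusted p = 1.34e-09). On TPM its calls at days 6 and 12 were each lost in 3 of 4 fits.

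Of 16 ubiquitin genes and delivery factors, 3 were higher and 0 lower at day 2, 4 higher and 5 lower at day 6, and 4 higher and 3 lower at day 12. At day 2 the share higher was 18.8%, beside 10.3% of all tested genes. The shares of 25% higher and 31.2% lower at day 6, and of 25% higher and 18.8% lower at day 12, lie near or below those of all tested genes (26.7% and 27.6%, then 26.1% and 26.6%). Ubb, a stress-responsive polyubiquitin gene, was higher at days 6 and 12, at 1001 ± 116 CPM (control) and 1273 ± 40.0 CPM on day 12 (0.35 ± 0.07, edgeR adjusted p = 5.32e-05). The ubiquitin-ribosomal fusion gene Rps27a did not pass. Uba1, the main ubiquitin-activating enzyme, was lower at day 12 (-0.15 ± 0.05, edgeR adjusted p = 0.0173, lost without control B or day 12 A), and the shuttle gene Ubqln4 was higher at day 2 (0.49 ± 0.06, edgeR adjusted p = 3.00e-07). On TPM the call of Uba1 was lost in 3 of 4 fits.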

How the data were processed

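PolyA RNA of 12 libraries was sequenced in bulk. The authors deposited RSEM expected counts as whole numbers, without normalization, and TPM values in a separate table. Per the submitters' processing notes, the tools were RSEM 1.3.3, STAR 2.7.8a, FastQC 0.11.8 and cutadapt 2.3, and the build was GRCm38. The annotation release and strand use in counting are not given in the sources used here. All columns were used (0 left out), and groups came from the labels. Library totals ran from 4326667 to 11654959 counts, which limits the precision of low members.

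In R 4.3.3 with edgeR 4.0.16, expected counts were filtered with filterByExpr (13513 of 55491 genes kept), scaled with TMM and fitted in 1 robust quasi-likelihood model of all 12 libraries with the group as its term (8 residual degrees of freedom). Each test was two-sided. The Benjamini-Hochberg adjustment covered all 13513 genes, at a threshold of 0.05. The SE is the absolute log2 fold change divided by the square root of F. CPM uses TMM-scaled totals and compares libraries, and TPM compares genes. The fit was tested on simulated data. Alternatives were DESeq2 1.42.0, other scalings and filters, a replicate block, fits of only 2 groups, limma 3.58.1 on log2(TPM + 1) and log2(TPM + 0.1), and leaving out each library. The centred TPM fit was chosen after seeing the data. Copies of members (identity of at least 95% over at least 300 bases) were sought with BLAST 2.17.0 in GENCODE transcripts.

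Members and lists were chosen with earlier results of these data known, so no set was tested. All members could be named, with values in every library for the 3 largest called changes against control at each day, the highest and lowest control TPM of core, cap and activators, and every activator. Values in every library of Psma6, Psmb5, Psmd8 and Psmd5, and the promoters printed, were chosen after values were seen. Same-lettered libraries were not shown to be pairs, so the main fit holds no block. Some genes of the lists are counted but not reported here by name.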

Additional observations from a re-analysis of the deposited data

Results flagged for a closer look

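The comparison between treated days differed from 0 by edgeR's test in 17 cases. This says that a member's level differed between the days, whether or not it differed from control at either. The background shares for these comparisons are given in the report, and none of these values is explained here.

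Between days 2 and 6 the log2 fold changes of core genes were -0.30 for Psma1 (edgeR adjusted p = 0.000174), -0.16 for Psma7 (edgeR adjusted p = 0.0377), -0.17 for Psmb2 (edgeR adjusted p = 0.0495) and -0.28 for Psmb5 (edgeR adjusted p = 0.00320). The inducible core gene Psmb10 gave -0.39 (edgeR adjusted p = 0.00996). Cap genes gave -0.14 for Psmd2 (edgeR adjusted p = 0.0466), -0.23 for Psmd3 (edgeR adjusted p = 0.00516), -0.27 for Psmd7 (edgeR adjusted p = 0.00158) and -0.29 for Psmd14 (edgeR adjusted p = 0.00314). Activators gave -0.20 for Psme2 (edgeR adjusted p = 0.0260), -0.53 for Psme3 (edgeR adjusted p = 5.85e-08) and 0.15 for Psme4 (edgeR adjusted p = 0.0364). Chaperones gave -0.22 for Psmd5 (edgeR adjusted p = 0.0188), -0.38 for Psmg1 (edgeR adjusted p = 0.00325), -0.33 for Psmg2 (edgeR adjusted p = 0.0142) and -0.80 for Psmg4 (edgeR adjusted p = 0.000998). Psmg4 rests on 45 to 104 counts per library. From day 6 to day 12, Psmd7 gave 0.22 (edgeR adjusted p = 0.0178). Of the 16 differences between days 2 and 6, 6 held in every fit on counts that left out a library or changed scaling, filter, tool, block or groups, and 2 also in the 4 fits on TPM.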

How the results depend on the processing

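Psmd3, Psme3, Psme4 and Psmg1 kept their calls against control at days 6 and 12 in every alternative. The other scalings of counts left the numbers of calls against control within 1.5 times, and depth limits Psmb10, Psmb9, Psmg4 and Psmb11. The cause of the differences below was not tested.

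At day 2, members higher went from 1 to 0 and members lower from 9 to 5 with DESeq2, to 4 with only 2 groups in the fit, to 3 with limma on log2(TPM + 1) or log2(TPM + 0.1), and to 2 with limma without a filter or with libraries centred, with 0 higher in each of these. Uncentred TPM shifted the median of all genes by 0.09 at day 6, by 0.12 between days 2 and 6 and by -0.05 between days 6 and 12, and took the share of higher among all calls from 49.2% to 61.9%, from 50.4% to 71.2% and from 49.9% to 35.4%. Under it, members lower at day 6 went from 22 to 8 (7 without a filter), and at day 12 from 15 to 7, with 2 higher in place of 4 without a filter or with centring. Medians moved at day 2 to -0.13 for the core with log2(TPM + 0.1) and to -0.0318, -0.0320 and -0.0318 for activators (0.0093 with centring), at day 6 to -0.10 for the core, -0.0651, -0.0654 and -0.0651 for the cap and 0.13 for activators, and at day 12 to 0.0201 for activators with centring. Between days 2 and 6, members higher were 0 without a filter, with DESeq2 and with centring, 5 on TPM and 2 on TPM without a filter, and members lower 2 on TPM. From day 6 to day 12, members higher were 2 without a filter and with the replicate block, 6 with only 2 groups and 0 on TPM.

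The replicate block, which added the letter to the model, gave 22 members lower at day 6 as before and 16 in place of 15 at day 12. Same-lettered libraries deviated together with correlations of -0.08 to 0.14, and 3, 4 and 4 of 6 libraries correlated best with their own letter at days 2, 6 and 12 against control.

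Leaving out each library gave 0 to 2 members higher and 3 to 14 lower at day 2, 2 to 3 and 17 to 23 at day 6, 3 to 6 and 10 to 18 at day 12, 0 to 5 and 10 to 16 between days 2 and 6, and 0 to 4 and 0 to 0 between days 6 and 12. Class medians ranged over -0.12 to -0.07 (core), -0.21 to -0.10 (cap) and 0.04 to 0.10 (activators) at day 2, -0.22 to -0.15, -0.23 to -0.12 and 0.02 to 0.11 at day 6, and -0.16 to -0.11, -0.14 to -0.11 and 0.08 to 0.15 at day 12.

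The direction turned on TPM for Psme2 between days 2 and 6 (0.0653 and 0.0657 with pseudocounts of 1 and 0.1, and 0.0653 without a filter) and for Ecpas at day 6 (0.10) and between days 2 and 6 (0.11 to 0.12), and with centring for Nlrc5 at day 6 (-0.0738). None of these passed on TPM.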
